A study of Mus musculus with 12 samples.

Results

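The genes described here are 37 genes of DNA replication and S phase, chosen by function as a list of symbols and matched by symbol to the Ensembl genes of the count table. All 37 were found among the 50684 genes of the table, and all 37 passed the filter on low counts, which left 19408 genes for testing. The choice used no measured value, although the list was drawn up with earlier results of these data known.

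The study injected cytokines into the skin of the ear pinna of C57BL/6 mice, 8-week-old females, and measured RNA of the ears by RNA-Seq as a model of psoriasis, an inflammatory skin disease with a thickened epidermis. There were 4 groups with 3 libraries each, taken from groups of 5 mice: PBS, IL-17A at 1 µg, IL-36γ at 1 µg, and IL-17A + IL-36γ at 1 µg of each. Every injection had a volume of 5 µL, so that the PBS ears were injected too. The ears were taken on day 4, after consecutive treatment over 4 days as the study describes it. Each library holds RNA of a homogenised part of the ear, in which epidermis, dermis, cartilage, muscle and infiltrating cells are mixed. In such bulk samples, fewer cells of a type and less RNA per cell cannot be told apart. The labels do not tie a replicate number to a litter, a cage or a day. The p-values set differences between group means against the spread of these 12 libraries within their groups.

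A cell that is about to divide first licenses its replication origins in G1 phase by loading the ring of the Mcm proteins on DNA, then activates this ring as a helicase, copies its DNA with a clamp, polymerases and single-strand binding proteins, and packs the new strands with histones. Transcription of most of these genes is controlled by the E2F factors, which the retinoblastoma proteins hold back until cyclin-dependent kinases act, and it peaks from late G1 into S phase. In healthy skin such cells are found mainly in the basal layer of the epidermis and in growing hair follicles. Psoriatic epidermis is known for a raised number of dividing keratinocytes, and infiltrating myeloid cells can also divide in inflamed tissue.

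The 12 libraries held 25293468 to 34759293 counts, of which 29948 to 63060 fell on the 37 genes. Values are given as CPM, counts scaled to a common library size, on sizes corrected by TMM, a method that sets most genes at a common level, and in the order of replicates 1, 2 and 3. Differences are log2 fold changes ± SE from the quasi-likelihood test of edgeR on all libraries, and a gene was called at a p-value below 0.05 after Benjamini-Hochberg adjustment over all 19408 genes. Library PBS replicate 1 stood apart from the other PBS libraries. Its median level over the 37 genes lay 0.33 above the PBS mean on the log2 scale, against -0.18 and -0.14 in replicates 2 and 3, and it was the highest PBS library for 36 of the 37 genes (44.2% of all genes tested). It also held 141 CPM of 5 skeletal muscle markers, against 1710 and 1420 CPM in the other PBS libraries. Library IL-36γ replicate 2 was the highest of its group for all 37 genes (32.7% of all genes tested). Results that rest on these libraries are therefore given with and without them.

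The replication genes rose with IL-36γ and with the combination. After IL-17A, 4 of the 37 genes were called as raised (7.44% of all genes), and these calls rested on single libraries. Their summed level was 1227, 877.8 and 907.7 CPM with PBS, 1246, 1212 and 1349 with IL-17A alone, 1568, 1921 and 1463 with IL-36γ alone, and 1966, 2046 and 1899 with both cytokines. Library PBS replicate 1 lay between the IL-17A libraries, whereas the libraries of the other treated groups lay above all PBS libraries. The mean sums were 1004 ± 194 CPM for PBS, 1269 ± 71.3 CPM for IL-17A, 1651 ± 240 CPM for IL-36γ and 1970 ± 73.6 CPM for the combination (SD, n = 3), that is 1.26, 1.64 and 1.96 times the PBS level. The mean CPM ascended from PBS over IL-17A and IL-36γ to the combination for 35 of the 37 genes (17.2% of all genes tested). The exceptions were Rpa2 and Pold3. All 37 genes had their highest group mean in the combination, as did 30.9% of all genes tested.

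**Figure D1:**
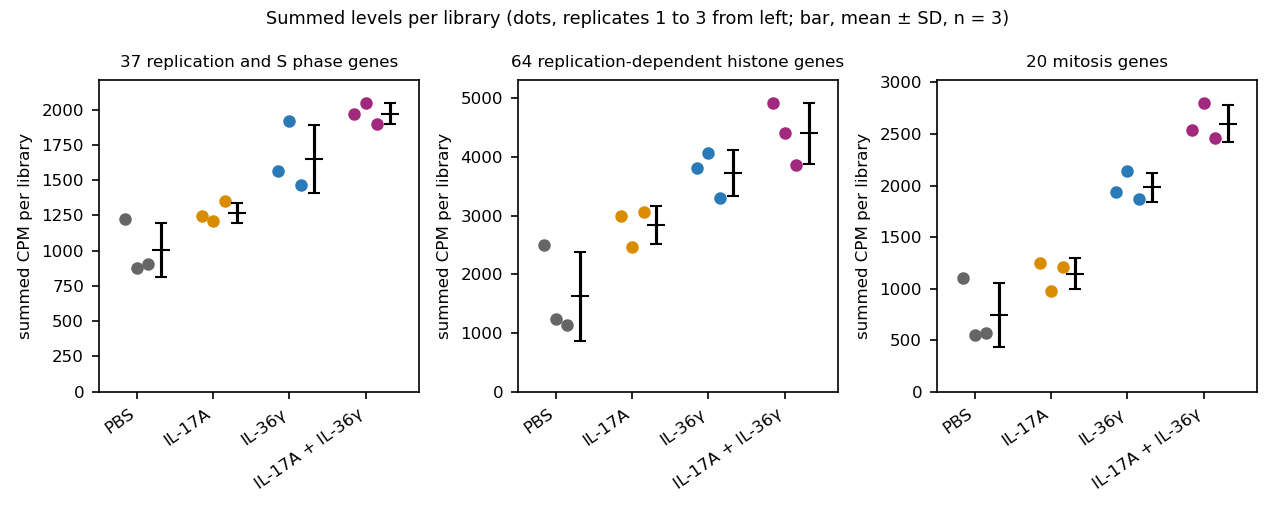
Summed CPM of the 37 replication genes, of 64 replication-dependent histone genes and of 20 mitosis genes in each library (points), with the mean and SD of each group (bars, n = 3). The replication sum runs from 877.8 CPM in PBS replicate 2 to 2046 CPM in combination replicate 2, and PBS replicate 1 is the highest PBS point in all panels.

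Against PBS, 4 of the 37 genes were raised by IL-17A (Gmnn, Pcna, Rpa2 and Rrm2), 36 by IL-36γ and 37 by the combination, while the shares of all genes raised were 7.44%, 17.3% and 23.7%. None of the 37 genes was lowered in any comparison, while 3.49%, 11.1% and 20.9% of all genes were lowered in these and 17.7% in the combination against IL-17A alone. The mitochondrial share of counts was 4.30% to 5.66% in the IL-17A libraries, 3.15% to 3.58% with PBS and 3.11% to 3.73% in the other libraries, and its part in the IL-17A values was not tested. With a change over 2-fold as a further condition, the counts were 0 for IL-17A (1.07% of all genes), 10 for IL-36γ (5.11% of all genes) and 15 for the combination (7.35% of all genes). The 3 treated libraries lay above the 3 PBS libraries without overlap for 9 genes in IL-17A, 32 in IL-36γ and 37 in the combination, against 19.6%, 22.4% and 27% of all genes. The median difference of the 37 genes from PBS was 0.35, 0.70 and 0.92 on the log2 scale, beside medians over all genes of 0.04, -0.02 and -0.03. These 3 comparisons share the PBS libraries. After IL-17A, 36 of the 37 estimates lay above 0 (55.6% of all genes), and 21 members were higher at an unadjusted p below 0.05 (19%). Without PBS replicate 1, 33 members had an unadjusted p below 0.05 in this comparison (37.9% of all genes, either direction). The number was 5 without PBS replicate 2 (22.7%) or PBS replicate 3 (20.2%).

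The counts after IL-17A rested on single libraries, and those after IL-36γ depended on them in part. Leaving out 1 library gave 22 to 37 members raised after IL-36γ (10.2% to 21.7% of all genes). The counts after the combination mostly did not depend on single libraries. Without PBS replicate 1, 26 genes were raised after IL-17A (15.2% of all genes), of which 2 over 2-fold (1.9% of all genes). No member was raised after IL-17A without PBS replicate 2, PBS replicate 3 or IL-17A replicate 1, and the share of all genes raised was then 1.6%, 0.0965% and 0.333%. A single member was raised without IL-17A replicate 2, IL-17A replicate 3, IL-36γ replicate 1 or combination replicate 2 (2.15%, 4.83%, 4.09% and 3.21% of all genes), and 2 without IL-36γ replicate 3, combination replicate 1 or combination replicate 3 (5.92%, 6.68% and 4.64% of all genes). After IL-36γ, 23 genes stayed past the threshold without PBS replicate 2, 22 without PBS replicate 3 and 23 without IL-36γ replicate 2, where the share of all genes raised fell as well, to 11.8%, 10.2% and 11.9%. The counts over 2-fold were then 6, 6 and 5, beside 4.92%, 4.13% and 4.13% of all genes. The calls of 13 genes were lost in all of these fits: Ung, Rpa2, Nasp, Slbp, Ccne2, Pola1, Pold3, Prim1, Chaf1b, Blm, Usp1, Dtl and Hells. After the combination, all 37 genes were raised whichever library was left out, and without PBS replicate 1 the count over 2-fold was 25 (7.8% of all genes).

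**Figure D2:**
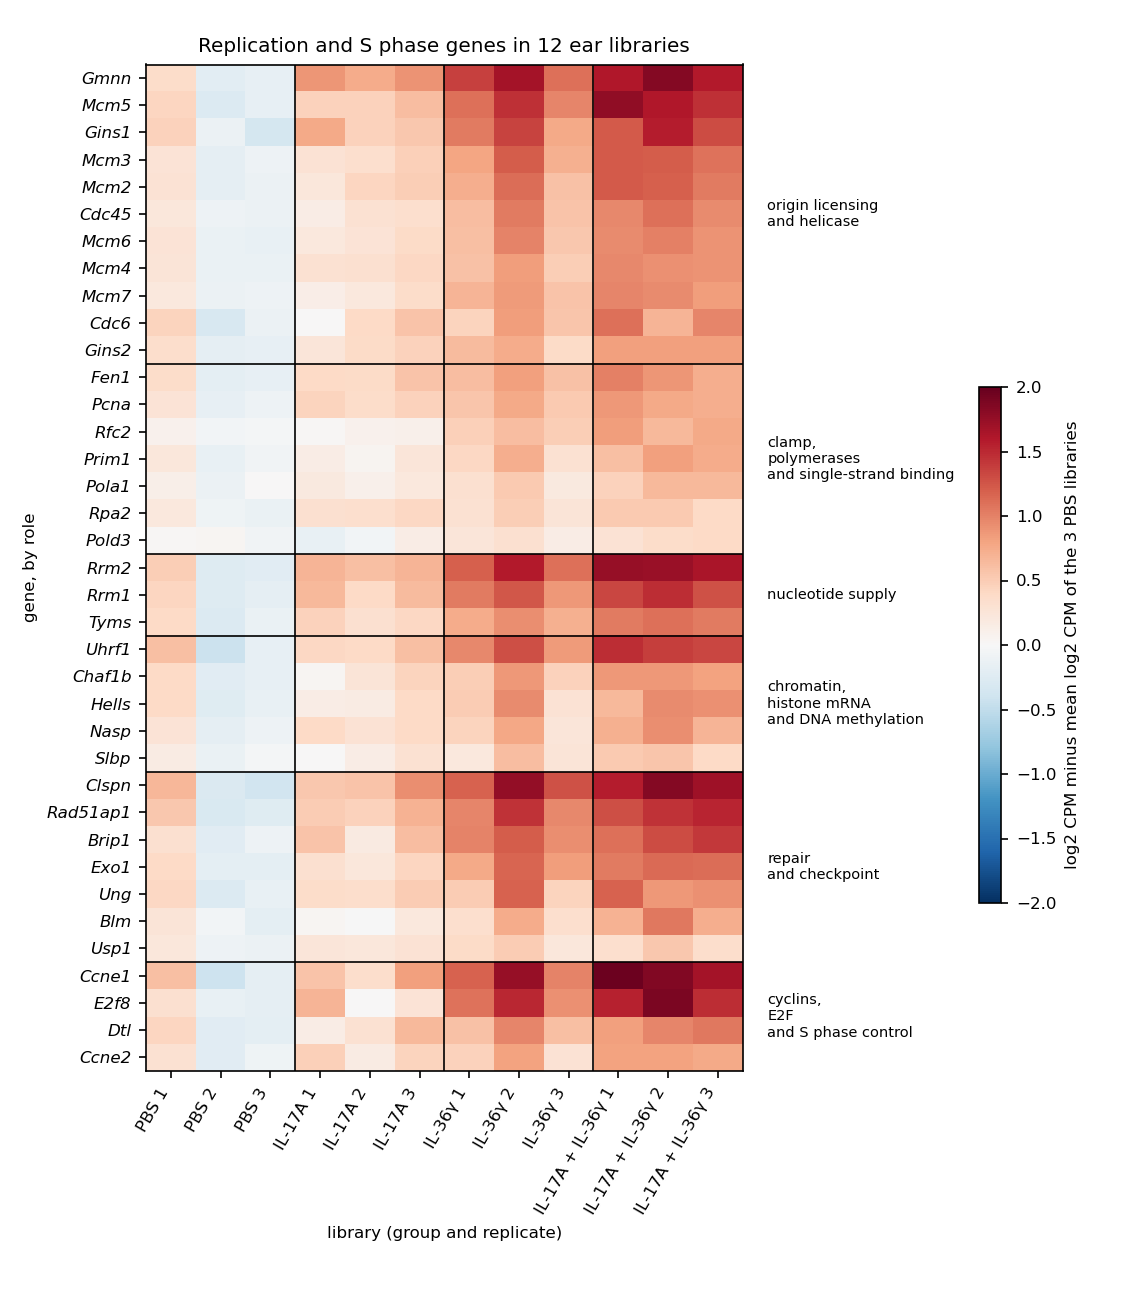
Difference of each of the 37 genes in each of the 12 libraries from the PBS mean, as log2 CPM, with the genes ordered by role. The median over the genes is 0.33 in PBS replicate 1, 0.32 to 0.46 in the IL-17A libraries, 0.57 to 0.94 in the IL-36γ libraries and 0.92 to 0.98 in the combination libraries.

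Origin licensing and helicase genes numbered 11. Of these, IL-17A raised 1, IL-36γ 10 and the combination 11, with a median log2 difference of 0.99 after the combination. Gmnn (ENSMUSG00000006715, GRCm38 chr13:24751845-24761923, minus strand) encodes geminin, which binds the loading factor Cdt1 and so prevents licensing once S phase has begun. It stood at 8.69, 5.80 and 6.03 CPM with PBS, 12.4, 11.3 and 12.5 with IL-17A alone, 17.3, 21.4 and 14.5 with IL-36γ alone, and 20.4, 24.1 and 20.1 with both cytokines. All treated libraries lay above all PBS libraries, and the ranges of the IL-36γ and combination groups overlapped. Gmnn rose by 0.82 ± 0.17 after IL-17A (adjusted p = 0.0217), by 1.37 ± 0.17 after IL-36γ (adjusted p = 0.00026) and by 1.65 ± 0.17 after the combination (adjusted p = 3.64e-05).

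Gins2 (ENSMUSG00000031821, chr8:120578633-120589304, minus strand) encodes a subunit of GINS, which joins Cdc45 and the Mcm ring to form the active helicase, and had the smallest difference of this role. Its levels were 13, 9 and 9.15 CPM with PBS, 12.1, 13.3 and 14.1 with IL-17A alone, 15.9, 17.2 and 13.4 with IL-36γ alone, and 18.1, 18.1 and 18 with both cytokines. The IL-17A range overlapped with PBS, and the combination libraries were the highest 3 of the 12. Gins2 rose by 0.58 ± 0.14 after IL-36γ (adjusted p = 0.0105) and by 0.80 ± 0.14 after the combination (adjusted p = 0.000841), and differed by 0.34 ± 0.14 after IL-17A (adjusted p = 0.125). The exons of Gins2 overlap those of a gene on the other strand over 67.3% of their length, and 64.7% of its windows of 76 bases, the read length, also occur in Gse1. The strand setting of the counting is not given in the sources used here, so reads of Gins2 and of that gene may not be separated.

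All members of the Mcm ring, the core of the replicative helicase, rose after IL-36γ and after the combination. After the combination, the log2 differences from PBS were 1.14 ± 0.15 for Mcm2, 1.16 ± 0.14 for Mcm3, 0.91 ± 0.11 for Mcm4, 1.58 ± 0.18 for Mcm5, 0.93 ± 0.13 for Mcm6 and 0.91 ± 0.10 for Mcm7. Mcm5 had the largest difference of the ring, and its libraries stood at 41.5, 25.4 and 27.4 CPM with PBS, 42.2, 42.4 and 47.3 with IL-17A alone, 65.5, 84.4 and 60.7 with IL-36γ alone, and 105, 93 and 84.4 with both cytokines. Per transcript length, as RPKM (reads scaled by transcript length and depth), the mean levels went from 7.95 to 17.5 for Mcm2, 10.9 to 24.4 for Mcm3, 13.9 to 26.2 for Mcm4, 9.30 to 27.8 for Mcm5, 21.6 to 41.3 for Mcm6 and 15.6 to 29.2 for Mcm7 between PBS and the combination. Mcm5 was thus the ring subunit with the second lowest RPKM after PBS and the third highest after the combination. The ratio of Mcm5 to Mcm4 in RPKM was 0.744, 0.595 and 0.642 after PBS, 0.732, 0.726 and 0.763 after IL-17A, 0.939, 1.02 and 0.93 after IL-36γ, and 1.15, 1.05 and 0.97 after the combination.

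Cdc6, which loads the Mcm ring together with Cdt1, was the only member not called after IL-36γ, with a log2 difference of 0.58 ± 0.21 (adjusted p = 0.0531). Its libraries stood at 8.72, 5.12 and 5.88 CPM after PBS, 8.72, 11.4 and 9.43 CPM after IL-36γ, and 13.7, 10.3 and 12.6 CPM after the combination. PBS replicate 1 reached the lowest IL-36γ library, and Cdc6 was raised after the combination by 0.89 ± 0.21 (adjusted p = 0.00455). Gins1, the other GINS subunit listed, rose from a mean of 3.92 CPM to 9.88 CPM after the combination (1.33 ± 0.21), and Cdc45, the partner of GINS in the helicase, from 10.8 to 21.5 CPM (0.99 ± 0.14).

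Genes of the clamp, the polymerases and single-strand binding numbered 7 and had the lowest median difference among the roles after the combination. Of these, IL-17A raised 2, IL-36γ 7 and the combination 7, with none over 2-fold and a median log2 difference of 0.72 after the combination. Pcna (ENSMUSG00000027342, chr2:132249162-132253314, minus strand), the sliding clamp that holds the polymerases on DNA, was the gene with the highest RPKM of the 37 after the combination, at 76.6 ± 3.65 (SD, n = 3). It stood at 81.4, 60.2 and 62.8 CPM with PBS, 91.6, 87 and 93.4 with IL-17A alone, 98.9, 114 and 96.6 with IL-36γ alone, and 123, 114 and 112 with both cytokines. The groups followed each other without overlap, except that IL-36γ replicate 2 reached the combination range. Pcna rose by 0.41 ± 0.11 after IL-17A (adjusted p = 0.0351), by 0.60 ± 0.11 after IL-36γ (adjusted p = 0.00201) and by 0.77 ± 0.11 after the combination (adjusted p = 0.000178). The pseudogene Pcna-ps2 holds 13.6% of the 76-base windows of Pcna.

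Fen1 (ENSMUSG00000024742, chr19:10199132-10204169, minus strand), the endonuclease that trims Okazaki fragments, had the largest difference of this role. It stood at 21.6, 14.6 and 15 CPM with PBS, 22.2, 21.8 and 24.9 with IL-17A alone, 25.8, 29.7 and 25.1 with IL-36γ alone, and 33.9, 30.8 and 27.9 with both cytokines. Fen1 rose by 0.65 ± 0.14 after IL-36γ (adjusted p = 0.00576) and by 0.85 ± 0.14 after the combination (adjusted p = 0.000561). Gm10143 on the other strand holds 73.6% of the 76-base windows of Fen1, whose value is uncertain in so far as the counting did not separate the strands. Rfc2, a subunit of the clamp loader, showed no difference after IL-17A that passed the test (0.07 ± 0.07, adjusted p = 0.521) and rose by 0.53 ± 0.07 after IL-36γ and by 0.75 ± 0.07 after the combination. The exons of Rfc2 overlap those of other genes on the other strand over 15.1% of their length. Other genes, Lat2 among them, hold 13.9% of its 76-base windows, so the same limit applies to Rfc2.

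Pold3 (ENSMUSG00000030726, chr7:100082111-100121565, minus strand), an accessory subunit of polymerase delta, had the smallest difference of all 37 genes. It stood at 29.6, 29.7 and 27.7 CPM with PBS, 26.1, 28 and 32.2 with IL-17A alone, 34.3, 36.2 and 32.3 with IL-36γ alone, and 35.3, 37.5 and 38 with both cytokines. The 6 libraries with IL-36γ lay above the 6 without it. Pold3 rose by 0.24 ± 0.08 after IL-36γ (adjusted p = 0.0464) and by 0.35 ± 0.08 after the combination (adjusted p = 0.00509), and differed by -0.01 ± 0.08 after IL-17A (adjusted p = 0.931). With the libraries scaled by their totals only, the combination call of Pold3 was lost (adjusted p = 0.0885).

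Rpa2 (ENSMUSG00000028884, chr4:132768332-132778752, plus strand), a subunit of the protein that coats single-stranded DNA, followed another order. It stood at 23.6, 19.3 and 18.6 CPM with PBS, 25.4, 25.8 and 27.3 with IL-17A alone, 25.2, 28.8 and 24.5 with IL-36γ alone, and 29.4, 29.2 and 26.8 with both cytokines. The 3 treated groups overlapped with each other and lay above PBS. Rpa2 rose by 0.35 ± 0.10 after IL-17A (adjusted p = 0.0436), by 0.35 ± 0.10 after IL-36γ (adjusted p = 0.0202) and by 0.47 ± 0.10 after the combination (adjusted p = 0.00232). Pola1, the catalytic subunit of polymerase alpha, and Prim1, the primase that works with it, rose by 0.58 ± 0.09 and 0.72 ± 0.12 after the combination.

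All 3 genes of nucleotide supply were raised after IL-36γ and after the combination, where all 3 passed 2-fold. Rrm2 (ENSMUSG00000020649, chr12:24708241-24714146, plus strand) encodes the small subunit of ribonucleotide reductase, which makes deoxyribonucleotides and limits their supply. It stood at 25.9, 15.5 and 15.8 CPM with PBS, 29.7, 28.1 and 29.8 with IL-17A alone, 42.6, 55.6 and 39.9 with IL-36γ alone, and 61.8, 61.3 and 57.1 with both cytokines. The 4 groups did not overlap. Rrm2 rose by 0.61 ± 0.18 after IL-17A (adjusted p = 0.0471), by 1.27 ± 0.18 after IL-36γ (adjusted p = 0.000491) and by 1.65 ± 0.18 after the combination (adjusted p = 4.29e-05).

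Rrm1, the large subunit of the same enzyme, stood at 126, 77.9 and 82.1 CPM with PBS, 146, 123 and 145 with IL-17A alone, 192, 219 and 170 with IL-36γ alone, and 236, 258 and 224 with both cytokines. It rose by 1.02 ± 0.16 after IL-36γ and by 1.33 ± 0.16 after the combination, and differed by 0.53 ± 0.16 after IL-17A (adjusted p = 0.0536). The ratio of Rrm2 to Rrm1 in RPKM was 0.374, 0.362 and 0.351 after PBS and 0.477, 0.433 and 0.464 after the combination. Tyms (ENSMUSG00000025747, chr5:30058202-30073617, minus strand), the thymidylate synthase, had the smallest difference of this role. It stood at 24.3, 15.3 and 16.9 CPM with PBS, 25.5, 23 and 24.6 with IL-17A alone, 30.7, 35.2 and 30.2 with IL-36γ alone, and 37.8, 39.5 and 38 with both cytokines. PBS replicate 1 lay within the IL-17A range, and Tyms rose by 0.77 ± 0.14 after IL-36γ (adjusted p = 0.00223) and by 1.03 ± 0.14 after the combination (adjusted p = 0.000162).

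None of the 5 genes of chromatin, histone mRNA and DNA methylation was called after IL-17A, and all 5 were raised after IL-36γ and after the combination. Uhrf1 (ENSMUSG00000001228, chr17:56303321-56323486, plus strand) brings the DNA methyltransferase Dnmt1 to newly copied DNA. It stood at 48.4, 23.7 and 28.5 CPM with PBS, 42.8, 42.1 and 48.6 with IL-17A alone, 62.4, 78.2 and 57.5 with IL-36γ alone, and 89.4, 83.5 and 80.8 with both cytokines. PBS replicate 1 lay within the IL-17A range. Uhrf1 rose by 0.98 ± 0.21 after IL-36γ (adjusted p = 0.00556) and by 1.33 ± 0.21 after the combination (adjusted p = 0.000419).

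Slbp (ENSMUSG00000004642, chr5:33634952-33652574, minus strand) encodes the protein that binds the stem-loop at the end of histone mRNAs, and it had the smallest difference of this role. It stood at 32.8, 26.8 and 28.6 CPM with PBS, 29.6, 32.5 and 36.2 with IL-17A alone, 33.9, 45.1 and 35 with IL-36γ alone, and 42.2, 43.1 and 38.6 with both cytokines. The IL-36γ libraries 1 and 3 lay close above PBS replicate 1, and IL-36γ replicate 2 was the highest library of all. Slbp rose by 0.37 ± 0.12 after IL-36γ (adjusted p = 0.0355) and by 0.49 ± 0.12 after the combination (adjusted p = 0.00585). The histone chaperone genes Nasp and Chaf1b rose by 0.76 ± 0.14 and 0.82 ± 0.17 after the combination, and Hells, a chromatin remodeller that takes part in DNA methylation, by 0.81 ± 0.18.

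Among the 7 genes of repair and checkpoint, IL-17A raised 0, IL-36γ 7 and the combination 7, with a median log2 difference of 1.06 after the combination. Clspn (ENSMUSG00000042489, chr4:126556935-126593903, plus strand) encodes claspin, an adaptor of the checkpoint kinase Chek1 at the fork. It stood at 24.9, 12.9 and 12 CPM with PBS, 22.9, 23.2 and 30.0 with IL-17A alone, 35.7, 53.1 and 38 with IL-36γ alone, and 46.8, 56 and 50.6 with both cytokines. PBS replicate 1 lay within the IL-17A range, and the other PBS libraries lay below it. Clspn rose by 1.35 ± 0.25 after IL-36γ (adjusted p = 0.0024) and by 1.62 ± 0.25 after the combination (adjusted p = 0.000352), and differed by 0.61 ± 0.25 after IL-17A (adjusted p = 0.119).

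Usp1 (ENSMUSG00000028560, chr4:98923810-98935543, plus strand), which removes ubiquitin from Pcna and Fancd2, had the smallest difference of this role. It stood at 70.1, 55.4 and 54.8 CPM with PBS, 70.9, 70.0 and 72.6 with IL-17A alone, 77.7, 84.5 and 69.9 with IL-36γ alone, and 75.1, 86.5 and 76.4 with both cytokines. The ranges of the IL-36γ and combination groups overlapped, and PBS replicate 1 lay above the lowest IL-36γ library. Usp1 rose by 0.36 ± 0.10 after IL-36γ (adjusted p = 0.0208) and by 0.40 ± 0.10 after the combination (adjusted p = 0.00782). The recombination genes Rad51ap1 and Brip1 rose by 1.37 ± 0.21 and 1.26 ± 0.16 after the combination. Exo1, an exonuclease of mismatch repair and recombination, rose by 1.06 ± 0.16, the helicase gene Blm by 0.82 ± 0.15, and Ung, which removes uracil from DNA, by 0.96 ± 0.22.

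Cyclins, E2F and S phase control held 4 genes, none of them called after IL-17A and all raised after IL-36γ and after the combination. Ccne1 (ENSMUSG00000002068, chr7:38097984-38107534, minus strand) encodes cyclin E1, which activates Cdk2 at the entry into S phase, and had the largest difference of all 37 genes after the combination. It stood at 5.09, 2.52 and 2.97 CPM with PBS, 5, 4.29 and 5.95 with IL-17A alone, 7.62, 11.3 and 6.68 with IL-36γ alone, and 13.1, 12.1 and 10.7 with both cytokines. Only IL-36γ replicate 2 reached the range of the combination. Ccne1 rose by 1.27 ± 0.26 after IL-36γ (adjusted p = 0.00433) and by 1.76 ± 0.26 after the combination (adjusted p = 0.000275), and differed by 0.52 ± 0.26 after IL-17A (adjusted p = 0.202).

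Ccne2 (ENSMUSG00000028212, chr4:11191351-11204779, plus strand), the gene of the other E-type cyclin, had the smallest difference of this role. It stood at 16.4, 11.3 and 12.5 CPM with PBS, 18.4, 14.9 and 18 with IL-17A alone, 18.3, 23.2 and 16.1 with IL-36γ alone, and 23.1, 23.1 and 22.3 with both cytokines. Ccne2 rose by 0.52 ± 0.15 after IL-36γ (adjusted p = 0.027) and by 0.77 ± 0.15 after the combination (adjusted p = 0.00197). In RPKM, the ratio of Ccne1 to Ccne2 was 0.466, 0.334 and 0.356 after PBS, 0.407, 0.432 and 0.498 after IL-17A, 0.625, 0.731 and 0.623 after IL-36γ, and 0.854, 0.785 and 0.72 after the combination. Ccne2 thus remained the more abundant cyclin E transcript per length in all 12 libraries, by a smaller margin in the libraries with IL-36γ.

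E2f8, an E2F factor that represses its targets, stood at 10.5, 7.59 and 7.37 CPM with PBS, 13.4, 8.41 and 10.1 with IL-17A alone, 17.7, 23.7 and 15.8 with IL-36γ alone, and 24.3, 30.9 and 23.4 with both cytokines. The 6 libraries with IL-36γ lay above the 6 without it. It rose by 1.17 ± 0.21 after IL-36γ and by 1.63 ± 0.21 after the combination. Dtl, the substrate receptor of a ubiquitin ligase that acts on proteins bound to Pcna, rose by 0.70 ± 0.18 and 0.92 ± 0.18.

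**Figure D3:**
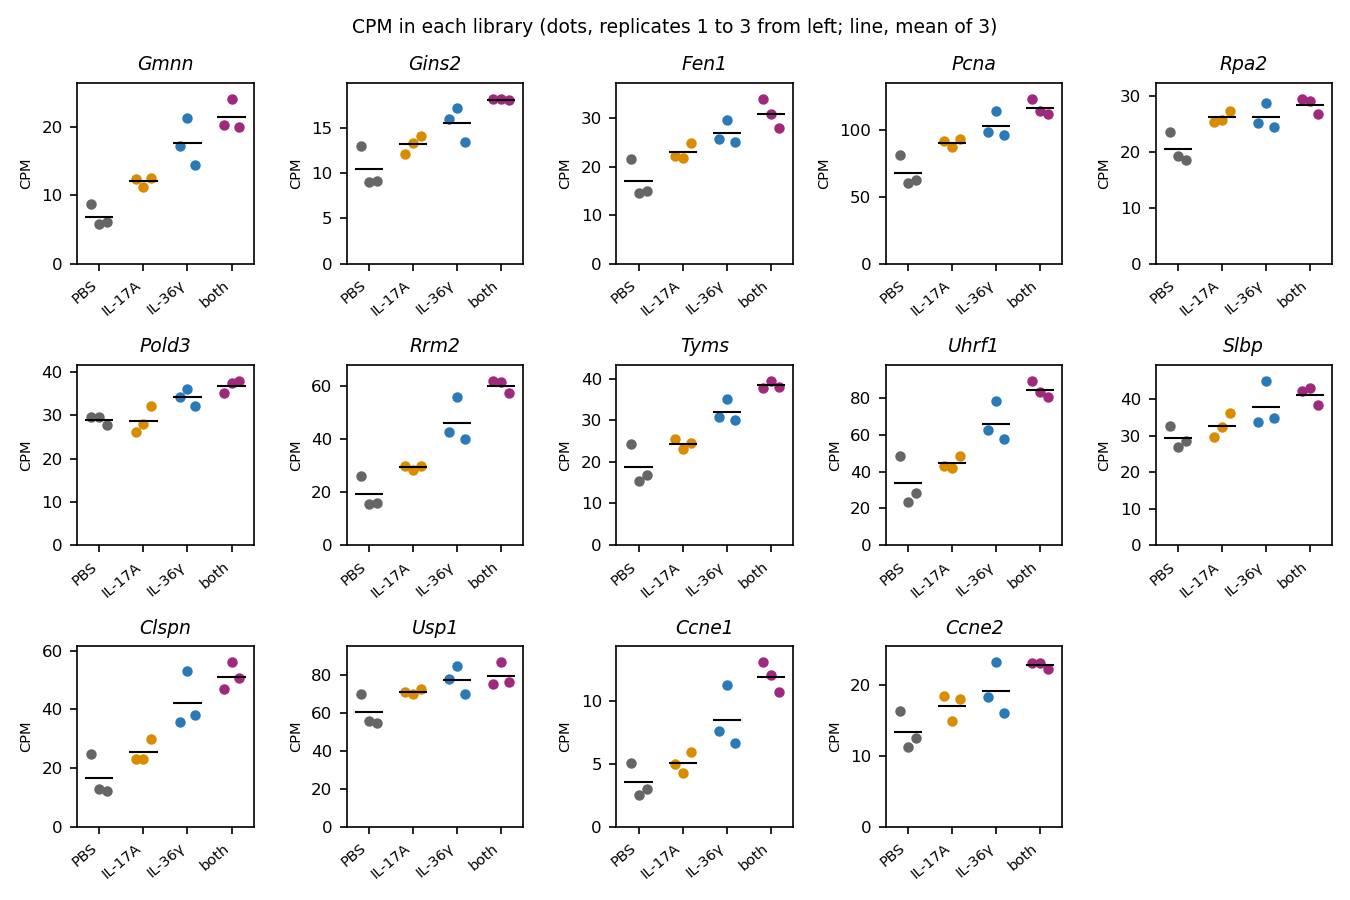
CPM of the members with the largest and the smallest difference in each role, and of Pcna and Rpa2, in the 12 libraries (points). Rrm2 separates the 4 groups without overlap, Pold3 separates the 6 libraries with IL-36γ from the 6 without, and the 3 treated groups overlap for Rpa2.

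**Figure D4:**
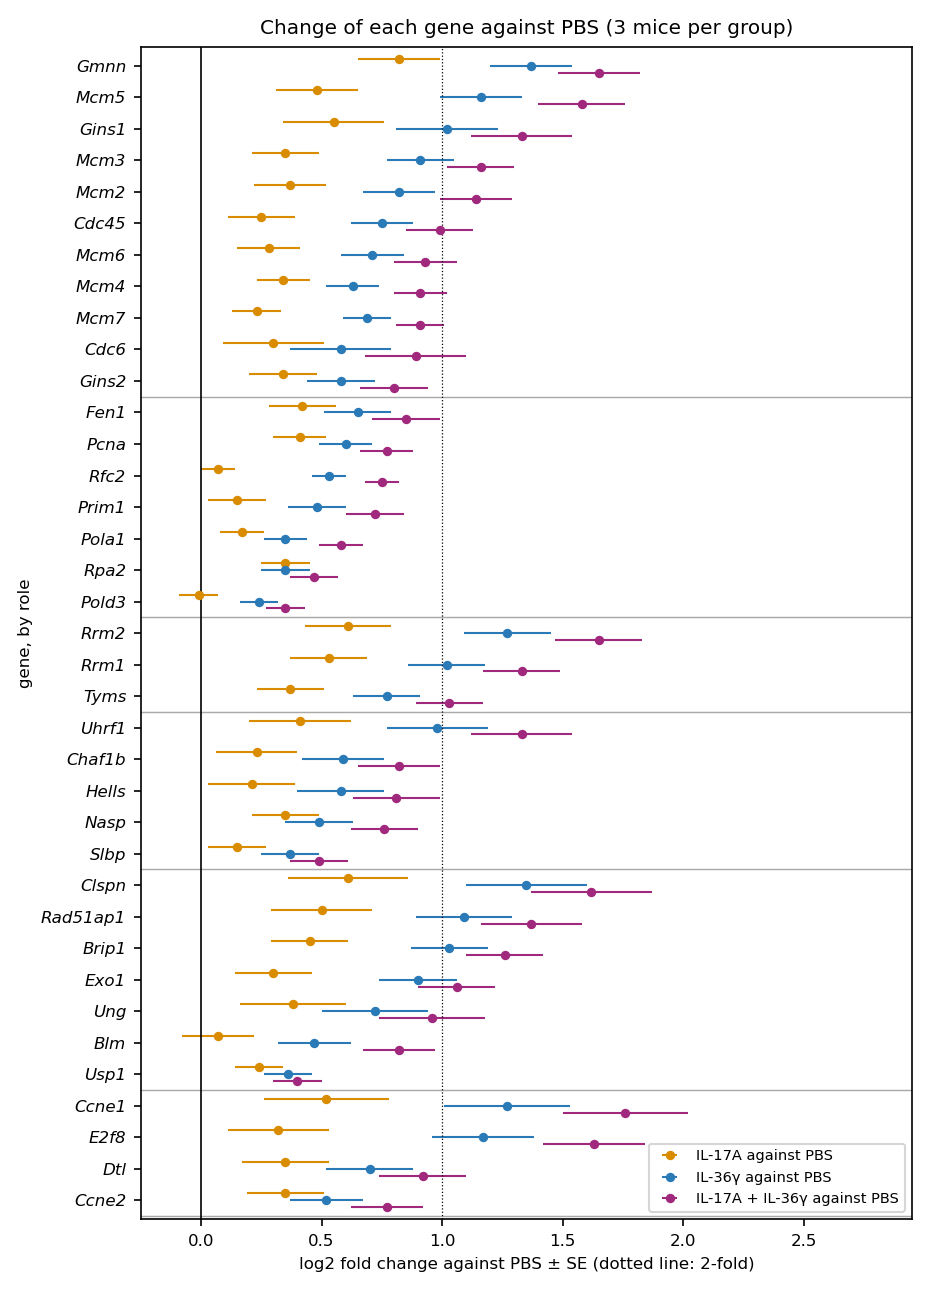
Log2 fold change against PBS with SE for the 37 genes after IL-17A, IL-36γ and the combination, by role, with a dotted line at 2-fold. The values run from -0.01 (Pold3) to 0.82 (Gmnn) after IL-17A, from 0.24 (Pold3) to 1.37 (Gmnn) after IL-36γ and from 0.35 (Pold3) to 1.76 (Ccne1) after the combination.

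Addition of IL-17A to IL-36γ gave higher estimates for every member, none of which passed the test. In the comparison of the combination with IL-36γ alone, 0 of the 37 genes and 0% of all genes were raised by edgeR's quasi-likelihood test, and 8 members had an unadjusted p below 0.05: Rfc2, Mcm4, Pola1, Mcm5, Blm, E2f8, Rrm2 and Mcm2 (5.6% of all genes, counted as higher). This number was 21 without IL-36γ replicate 2 (7.65% of all genes), 17 without PBS replicate 1 (7.68%) and 1 without IL-36γ replicate 1 (3.7%) or replicate 3 (3.48%). It was 4 without combination replicate 1 (3.7%) and 3 without combination replicate 2 (4.61%). With the likelihood ratio test of DESeq2, 1 member was called, Rfc2 (adjusted p = 0.0394, beside 0.204 with edgeR), and DESeq2 raised 211 and lowered 551 genes of the whole table. The libraries of Rfc2 stood at 32.6, 35.8 and 32.9 CPM after IL-36γ and 41.5, 36.7 and 39.5 CPM after the combination, a log2 difference of 0.22 with a 95% interval from 0.06 to 0.37. The combination libraries lay above the IL-36γ libraries without overlap for 8 of the 37 genes, against 9.33% of all genes. Estimates ran from 0.04 (Usp1) to 0.49 (Ccne1) with a median of 0.25. The 95% intervals were -0.19 to 0.26 for Usp1, -0.06 to 1.03 for Ccne1 and 0.05 to 0.79 for Mcm5, and those of all but the 8 genes above included 0. Without IL-36γ replicate 2, the median was 0.40.

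**Figure D5:**
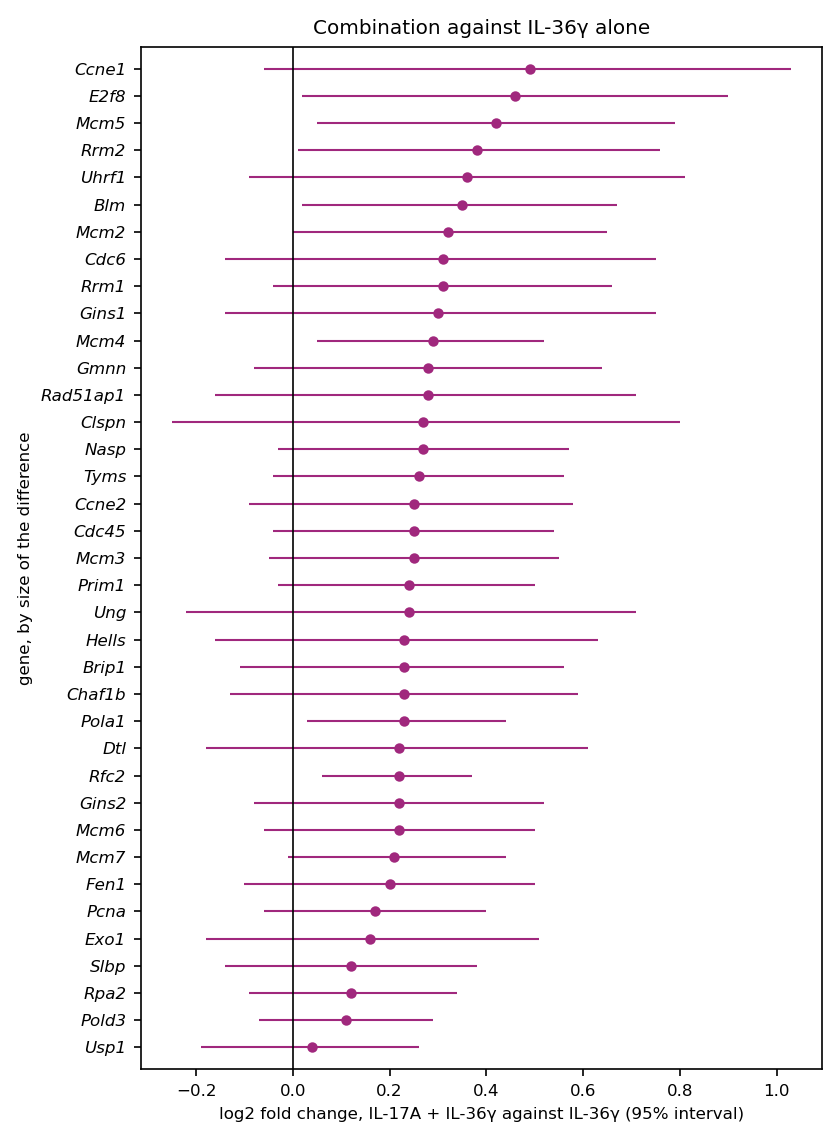
Log2 fold change of the combination against IL-36γ alone for each of the 37 genes, with its 95% interval. All 37 estimates lie above 0, between 0.04 (Usp1) and 0.49 (Ccne1), and none was called by edgeR after adjustment.

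Compared with IL-17A alone, the combination raised 33 of the 37 genes (15.1% of all genes), 5 of them over 2-fold (4.46% of all genes). The genes not called were Ccne2 (0.42 ± 0.15, adjusted p = 0.0557), Ung (0.58 ± 0.22, adjusted p = 0.0576), Usp1 (0.16 ± 0.10, adjusted p = 0.262) and Rpa2 (0.12 ± 0.10, adjusted p = 0.37). E2f8 had the largest difference in this comparison, with 1.31 ± 0.21. The combination libraries lay above the IL-17A libraries without overlap for 36 of the 37 genes, all but Rpa2, as they did for 23% of all genes tested. The count of 33 depended on single libraries. It was 23 without IL-17A replicate 2 (10.1% of all genes raised) and 35 without PBS replicate 1 (17.2%). The calls lost numbered 8 without IL-17A replicate 1 (13.4% of all genes raised), 7 without combination replicate 1 (10.9%) and 6 without combination replicate 2 (12.4%).

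The comparison of the cytokines with each other called 9 genes, all higher after IL-36γ than after IL-17A (4.37% of all genes). These were Rfc2, Mcm7, E2f8, Mcm3, Mcm5, Rrm2, Exo1, Brip1 and Cdc45, with log2 differences between 0.46 (Rfc2) and 0.85 (E2f8). The median over the 37 genes was 0.40. This count too rested on single libraries: it was 19 without PBS replicate 1 (6.8% of all genes), 2 without IL-17A replicate 1 (3.41%), 1 without IL-17A replicate 2 (0.641%), 3 without IL-17A replicate 3 (2.43%), 1 without IL-36γ replicate 1 (2.27%) or replicate 2 (0.828%), and 5 without combination replicate 2 (3.84%).

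The interaction, which sets the effect of adding IL-17A to IL-36γ against its effect on PBS ears (a difference of log2 differences), was called for 0 of the 37 genes and for 0.551% of all genes by edgeR. A single member had an unadjusted p below 0.05, beside 22.5% of all genes: Gmnn, with -0.54 and a 95% interval from -1.05 to -0.02 (adjusted p = 0.208). Estimates ran up to 0.28 (Blm), with a median of -0.08 beside -0.07 over all genes. Without PBS replicate 1, Gmnn (-0.75, adjusted p = 0.0466) and Pcna (-0.39, adjusted p = 0.0488) were called, both lower than the sum of the single differences, beside 7.77% of all genes called in either direction. In that fit 11 members had an unadjusted p below 0.05 (28.8% of all genes), and the median over the members was -0.32. Without IL-36γ replicate 2, the median was 0.07, so that the sign of this median depended on single libraries.

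Genes of the same pathways were counted from lists written by function, which also hold members of the 37. Among genes outside the 37, the combination raised 13 of 13 for helicase activation, 7 of 9 for the polymerases and 10 of 10 for the clamp list. It raised 5 of 5 for lagging strand maturation, 8 of 10 for nucleotide supply and 6 of 8 for replication-coupled chromatin. For fork repair it raised 7 of 12, and for E2F, cyclin and CDK control 12 of 22. In the list of origin recognition and licensing, 11 of 16 genes were raised after the combination, but only 3 of its 8 genes that are not among the 37: Orc1 (1.37), Cdt1 (1.19) and Mcmbp (0.37). The subunits Orc5 (-0.12, adjusted p = 0.155) and Orc4 (-0.06, adjusted p = 0.488) of the origin recognition complex had the lowest values. For helicase activation, 12 of 16 genes were raised after IL-36γ and 16 of 16 after the combination, with Mcm10 (1.71) and Ticrr (1.66) at the top and Mtbp (0.33) and Tipin (0.50) at the bottom. Of the subunits of polymerases alpha, delta and epsilon, 10 of 12 were raised after the combination, led by Pole (0.87) and Prim2 (0.82), while Pole3 (0.08, adjusted p = 0.608) and Pold4 (0.16, adjusted p = 0.406) were not called. All 13 genes of the clamp, clamp loaders and single-strand binding were raised after the combination, with Pclaf (1.99), a protein that binds the clamp, and Chtf18 (1.04) highest and Rpa1 (0.30) and Rpa3 (0.32) lowest. All 6 genes of lagging strand maturation were raised, from Rnaseh2b (0.56) and Rnaseh2a (0.60) to Dna2 (1.07) and Lig1 (1.16).

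The list of nucleotide supply had 11 of 13 genes raised after the combination, with Samhd1 (1.78) and the member Rrm2 (1.65) highest. Dctd (0.03, adjusted p = 0.903) was not called, and Rrm2b (-0.42, adjusted p = 0.000458), the small reductase subunit used outside S phase, was lowered. Samhd1 degrades deoxyribonucleotides and is also known as a gene induced by interferon. For replication-coupled chromatin, 11 of 13 genes were raised, led by Asf1b (1.61) and the member Uhrf1 (1.33), while Npat (0.09, adjusted p = 0.35) and Asf1a (0.12, adjusted p = 0.318) were not called. In the list of fork repair and checkpoint, 15 of 20 genes were raised, with Fancd2 (1.66) and Fanci (1.65) highest and Atrip (-0.42, adjusted p = 0.154) and Atr (0.03, adjusted p = 0.797) lowest, neither of them called. Of the 25 genes of E2F, cyclin and CDK control, 15 were raised and 2 lowered. The raised genes included Ccna2 (1.96), the S phase cyclin, and the member Ccne1 (1.76), and the lowered genes were the D-type cyclin genes Ccnd2 (-1.15, adjusted p = 1.28e-05) and Ccnd1 (-0.36, adjusted p = 0.0209). Among the 6 CDK inhibitors tested of 7 listed, Cdkn2d (0.90) was raised and Cdkn1c (-1.71, adjusted p = 1.01e-05) and Cdkn2b (-0.56, adjusted p = 0.0277) were lowered after the combination, while Cdkn1a (-0.07, adjusted p = 0.511) and Cdkn1b (-0.06, adjusted p = 0.541) were not called.

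Histone and mitosis genes, which act beside and after DNA replication, had higher median differences than the 37 genes in all 3 comparisons with PBS. The replication-dependent histone genes, 64 in the table and 54 tested, summed to 2498, 1241 and 1143 CPM with PBS, 2985, 2467 and 3056 with IL-17A alone, 3815, 4063 and 3292 with IL-36γ alone, and 4916, 4410 and 3869 with both cytokines. PBS replicate 1 was level with the lowest IL-17A library, and all libraries with IL-36γ lay above all libraries without it. The mean sums were 1.74, 2.29 and 2.70 times the PBS level. Of the 54 genes, IL-17A raised 19, IL-36γ 50 and the combination 50, with medians of 0.84, 1.40 and 1.70 on the log2 scale. Many histone genes are near-identical copies, so that single copies are uncertain, and their mRNAs end in a stem-loop in place of a poly(A) tail, which libraries made by depletion of ribosomal RNA retain.

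The list of 20 mitosis genes summed to 742 ± 314 CPM in PBS, 1140 ± 148 in IL-17A, 1980 ± 140 in IL-36γ and 2600 ± 180 in the combination (SD, n = 3). Within PBS, replicate 1 held 1100 CPM against 551 and 571 CPM in replicates 2 and 3. Of the 20 genes, IL-17A raised 4, IL-36γ 20 and the combination 20, with medians of 0.72, 1.52 and 1.95. After the combination, Plk1 (2.54) and Birc5 (2.15) had the largest and Cenpf (1.38) and Nusap1 (1.63) the smallest difference, and the smallest of these lay above the median of 0.92 of the 37 replication genes. The difference between these lists was not tested.

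Promoter sequences are shown because E2F and NF-Y sites are textbook features of promoters of replication genes. The 37 genes were chosen by function, so the shares below describe this list. Whether such sites had a part in the changes was not tested. Promoters of 29 of the 37 genes were found in the RefSeq table of GRCm38.p6, which covers 250 bases before to 50 bases after the transcription start. Of these 29, 11 (37.9%) held an E2F word, that is TTTCGCGC, TTTGGCGC or TTTCCCGC on either strand, against 3.56% of the 12854 tested genes with a promoter in the table and 2.12% of all 27025 genes in it. The word CCAAT, bound by NF-Y, was found on either strand in 21 of 29 (72.4%) against 42.1% of the tested genes, and the CHR words TTTGAA or TTCGAA, known from promoters of mitosis genes, in 6 of 29 (20.7%) against 17.1%. Members with an E2F word were Cdc6, Clspn, Dtl, Hells, Mcm3, Mcm5, Mcm6, Mcm7, Pola1, Pold3 and Uhrf1. Their median log2 difference after the combination was 0.92, against 0.97 in the 18 genes with a promoter and no such word. Pold3, the gene with the smallest difference, thus holds a word, and Ccne1, with the largest, does not. A match is a description of these letters, and no match says only that they are not in this window.

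The 200 bases before the transcription start are printed below 5′ to 3′ on the gene's strand for 4 members with an E2F word and 2 without, in lower case with the E2F words and CCAAT in capitals (ATTGG is CCAAT and GCGCCAAA or GCGCGAAA an E2F word on the opposite strand). In Mcm5 (chr8:75109309-75109508, plus strand), TTTCGCGC lies 153 bases before the start and overlaps TTTGGCGC on the opposite strand. In Mcm6 (chr1:128359706-128359905, minus strand), TTTGGCGC lies 110 and 47 bases before the start, and the first of these overlaps TTTCGCGC on the opposite strand. Dtl (chr1:191575545-191575744, minus strand) holds TTTGGCGC directly before the start, and Pola1 (chrX:93632156-93632355, minus strand) holds it on the opposite strand 138 bases before the start. E2f8 (chr7:48881597-48881796, minus strand) and Rad51ap1 (chr6:126939588-126939787, minus strand) hold CCAAT on the opposite strand only, 112 and 36 bases before the start.
Mcm5: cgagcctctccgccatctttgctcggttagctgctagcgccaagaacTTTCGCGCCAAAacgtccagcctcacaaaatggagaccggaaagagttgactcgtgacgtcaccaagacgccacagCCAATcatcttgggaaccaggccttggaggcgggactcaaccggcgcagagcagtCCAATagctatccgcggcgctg
Mcm6: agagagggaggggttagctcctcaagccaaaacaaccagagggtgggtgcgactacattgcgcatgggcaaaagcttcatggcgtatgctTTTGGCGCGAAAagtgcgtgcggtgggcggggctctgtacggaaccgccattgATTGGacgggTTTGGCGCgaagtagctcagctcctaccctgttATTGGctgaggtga
Dtl: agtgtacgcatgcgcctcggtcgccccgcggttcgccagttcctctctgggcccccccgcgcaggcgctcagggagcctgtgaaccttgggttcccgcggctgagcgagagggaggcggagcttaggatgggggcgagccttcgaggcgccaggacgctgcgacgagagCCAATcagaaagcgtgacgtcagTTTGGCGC
Pola1: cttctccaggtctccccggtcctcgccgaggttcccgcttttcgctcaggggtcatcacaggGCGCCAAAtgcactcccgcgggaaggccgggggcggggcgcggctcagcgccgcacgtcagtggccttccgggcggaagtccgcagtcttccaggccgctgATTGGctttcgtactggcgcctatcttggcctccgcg
E2f8: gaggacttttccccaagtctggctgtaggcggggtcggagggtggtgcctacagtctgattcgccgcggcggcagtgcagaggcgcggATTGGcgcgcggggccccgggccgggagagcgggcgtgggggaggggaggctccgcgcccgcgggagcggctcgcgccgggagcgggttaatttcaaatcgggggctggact
Rad51ap1: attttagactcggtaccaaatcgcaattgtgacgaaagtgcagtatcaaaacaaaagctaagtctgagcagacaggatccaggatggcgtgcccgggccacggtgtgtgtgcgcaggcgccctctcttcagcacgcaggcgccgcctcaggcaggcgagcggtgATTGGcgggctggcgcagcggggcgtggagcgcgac
These 6 genes differed from PBS after the combination by 1.58, 0.93, 0.92, 0.58, 1.63 and 1.37 on the log2 scale, in the order printed.

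Markers of several cell types moved with the 37 genes. The summed level of 6 basal keratinocyte markers was 8300 to 10400 CPM in PBS, 11400 to 14200 in IL-17A, 12600 to 15400 in IL-36γ and 15700 to 19800 in the combination. Within this list, Krt14 (1.38) and Krt5 (0.87) were raised after the combination, Col17a1 (-0.42) was lowered, and Itga6 (0.19), Trp63 (-0.09) and Itgb4 (-0.16) were not called. The 6 suprabasal markers summed to 8350 to 12800, 10400 to 13100, 15200 to 21600 and 18500 to 20500 CPM in the same order of groups, with 3 raised after the combination. The 4 keratin genes of thickened epidermis, all raised, summed to 325 to 526, 578 to 2240, 2080 to 5490 and 6260 to 10600 CPM.

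Markers of neutrophils, 8 of 8 raised after the combination, summed to 20.4 to 100, 387 to 883, 2290 to 4850 and 7620 to 10100 CPM. Within this list, S100a8 and S100a9 reached 3770 and 6080 CPM, and the study names macrophages and keratinocytes as further sources of their proteins. The other markers reached at most 102 CPM (Csf3r), and Ly6g at most 0.858 CPM. The 4 markers of neutrophil precursors summed to 1.67 to 3.99, 1.73 to 2.43, 1.22 to 1.9 and 0.951 to 1.48 CPM. Elane held at most 1 count, Mpo at most 7 and Prtn3 3 to 8 counts in a library, and Ctsg, the only one of them tested, held 18 to 131 counts and was lowered after the combination (-1.11, adjusted p = 0.0328). Markers of macrophages and monocytes, 6 of 6 raised, summed to 438 to 522, 680 to 904, 1080 to 1180 and 1030 to 1190 CPM. The 7 T cell markers, of which 3 were raised and 1 was lowered, summed to 26.1 to 29.8, 29.7 to 35.2, 33 to 34.5 and 28.9 to 32.1 CPM. Markers of the hair matrix, another site of division, summed to 13.1 to 14, 9.81 to 12.6, 10.5 to 11.7 and 9.14 to 9.97 CPM, with 0 of 5 raised and 3 lowered, and Shh held at most 3 counts in any library.

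Tissue components without raised markers after the combination were fibroblasts (0 of 5 raised and 2 lowered; 5470 to 6110, 5140 to 8450, 4490 to 4670 and 3980 to 4490 CPM), endothelium (0 of 4 raised and 2 lowered; 109 to 134, 131 to 153, 115 to 124 and 110 to 116 CPM), cartilage (0 of 3 raised and 3 lowered; 167 to 228, 126 to 253, 107 to 142 and 74.9 to 104 CPM) and skeletal muscle (0 of 5 raised; 141 to 1710, 1090 to 1440, 508 to 1110 and 80.5 to 614 CPM). Of the 3 erythroid markers, 3 were raised after IL-17A and 0 after the combination. Whether these markers had a part in the levels of the replication genes was not tested.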

How the data were processed

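RNA-Seq libraries of mouse ears, 3 for each of 4 groups, were made by depletion of ribosomal RNA and sequenced as paired ends over 76 cycles. Per the submitters' processing notes, reads were aligned with STAR 2.5.2b to mm10 and assigned to genes with featureCounts of Subread 1.5.1. The strand setting is not given in the sources used here. The authors deposited the resulting counts per Ensembl gene without normalization. They also deposited tables of their own comparisons (DESeq2 1.30.0) with fold changes and p-values, of which only the pairs of Ensembl identifier and symbol were read, to find the members. Other symbols and all positions come from the GENCODE annotation vM21 of GRCm38.

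Groups were taken from the sample labels. Counts were analysed in R 4.3.3 with edgeR 4.0.16 and limma 3.58.1. Genes were kept by filterByExpr with a minimum count of 10, libraries were scaled by TMM, and contrasts of the 4 group means were tested by the quasi-likelihood test in 1 fit of the 12 libraries, with Benjamini-Hochberg adjustment over 19408 genes, an adjusted p threshold of 0.05 and, separately, 2-fold. RPKM used the longest principal transcript. With 25293468 to 34759293 counts per library, the counting error is included in the dispersion of each gene. The chi-square per gene of 12 library pairs within groups was 7.03 to 63.3, so that no library was a copy of another in its group. Pairs across groups were not checked in this way.

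The procedure was tested on simulated data for the combination against PBS with 19167 genes: 92 of 100 genes changed by 1 on the log2 scale were recovered and 99 of 100 changed by 2, with 10 false calls. For the interaction, with 19131 genes, 73 of 100 and 97 of 100 were recovered, with 12 false calls. In both cases only these genes were changed, in the combination libraries alone, and all had a mean above 100 counts. Changes smaller than 1 were not simulated, so the recovery does not cover the interaction estimates of the members.

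The members, gene lists and marker lists were chosen with earlier results of these data known. Values per library are given for the member with the largest and the smallest difference of the combination from PBS in each role. They are also given for Pcna and Rpa2, which were called after IL-17A, and for Mcm5, Cdc6, Rrm1, E2f8 and Rfc2, all chosen after their values were seen, and pathway genes are the 2 highest and 2 lowest of each list, apart from Cdt1, Orc1, Mcmbp, Cdkn1a and Cdkn1b and markers. Alternatives were scaling by size factors or totals, other filters, DESeq2 1.42.0, only 2 groups, a replicate block and leaving out each library.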

Additional observations from a re-analysis of the deposited data

How the results depend on the processing

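Counts of members called kept within 1.5 times in 358 cases (a count under an alternative) and moved in 38, and no named gene reversed. Many of the 358 were counts of 0 in both fits, among them nearly all counts of lowered members. The 358 cases are therefore no measure of how stable the counts above 0 were. After IL-17A, 2 members were raised with size factors (5.5% of all genes), 1 with library totals (2.51%), 0 with only the 2 groups (0.0906%) and 7 with DESeq2 (12.4%). Leaving out 1 library gave 0 to 26 (0.0965% to 15.2% of all genes), or 0 to 2 over 2-fold (0.0508% to 1.9%). After IL-36γ, 6 passed 2-fold with library totals (4.24% of all genes) and 23 were raised with only the 2 groups (13.1%). Leaving out 1 library gave 22 to 37 raised (10.2% to 21.7% of all genes) and 5 to 13 over 2-fold (4.13% to 5.58%). After the combination, leaving out 1 library gave 37 in each case (18.2% to 25.8% of all genes), and 13 to 25 over 2-fold (6.65% to 7.8%). Against IL-36γ alone, DESeq2 called 1. For the combination against IL-17A alone, leaving out 1 library gave 23 to 35 raised (10.1% to 17.2% of all genes). Of these, 4 to 5 passed 2-fold (3.53% to 5.14%). For IL-36γ against IL-17A, 16 were raised without a filter (3.25% of all genes), 15 with only the 2 groups (6.16%) and 18 with DESeq2 (8.33%). Leaving out 1 library gave 1 to 19 (0.641% to 6.8% of all genes), or 0 to 1 over 2-fold (0.273% to 1.54%). For the interaction, leaving out 1 library gave 0 to 2 lowered. The causes were not tested. Scaling by library totals shifted the median of all genes to -0.13, -0.16 and -0.17 against PBS for IL-17A, IL-36γ and the combination. The split of raised and lowered genes over the whole table after the combination was then 3213 and 5941, beside 4608 and 4056. After IL-36γ, 25 members were raised (11% of all genes). Changes of the 37 genes are therefore relative to that scaling. The differences of named genes kept their side of the threshold in 527 cases and lost it in 81, all after IL-17A or IL-36γ except Pold3 after the combination with library totals. The same-numbered libraries of 2 groups deviated together in 9 of 18 pairs (correlations from -0.2 to 0.35, over 0.1 in these 9). With 3 libraries a group, this cannot decide whether the numbers pair them. A replicate block raised 5 members after IL-17A (11% of all genes), with Rrm1 added. With the block, 17.3% of all genes were called in either direction after IL-17A, beside 10.9% without it. For the interaction, these shares were 4.55% and 0.551%. The block lost the calls of Pold3 after IL-36γ (35 raised, 19.2% of all genes) and of Cdc6 and Slbp in the combination against IL-17A (31 raised, 16.7%). It also lost those of Cdc45, Brip1 and Exo1 in IL-36γ against IL-17A (6 raised, 4.91%). Depth limits Gins1, Ccne1 and Ung, the members with the lowest CPM after PBS.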
